A study of Mus musculus with 4 samples.

Results

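The genes described here are those of the NF-kB transcription factor subunits and of the inhibitors that NF-kB itself induces, in ATDC5 cells with and without Chadl knockdown. They were chosen by name from a list of 10 genes, taking each probe set whose only gene symbol is on the list. That gave 14 probe sets of 9 genes, out of 45037 probe sets and 17097 genes tested. The 10th gene on the list, Nfkb1, was not analysed here. All values are log2 signals, so a difference of 1 is a doubling.

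ATDC5 is a mouse chondrogenic cell line of teratocarcinoma origin. Both groups received 30 nM of an RNA duplex of 27 nucleotides with a lipid reagent, and differentiation medium after 16 h, and RNA was taken at 5 days. The 2 control samples carried a scrambled duplex and the 2 knockdown samples a duplex specific for Chadl, which encodes chondroadherin-like, a leucine-rich repeat protein. A single effective duplex sequence was used, so lowering Chadl and any other action of that duplex cannot be told apart. The samples are labelled as biological replicates, but nothing says that they came from separate cultures, and p-values therefore reflect a spread between samples that may be technical.

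NF-kB is a family of dimers built from Rel-domain subunits. In resting cells the dimers are held in the cytoplasm by IkB proteins, and kinases activated by cytokine receptors, Toll-like receptors or RNA sensors mark the IkB proteins for degradation. The freed dimers switch on inflammatory genes and also the genes of their own inhibitors, which ends the response. In cartilage cells the pathway is known for the response to interleukin-1 and TNF, with induction of chemokines and matrix-degrading enzymes.

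Because that feedback acts through NF-kB sites at the inhibitor genes, the sequences before the gene starts were examined first. The motif GGGNNNTTCC, a core that many NF-kB sites share, was searched on both strands (GGAANNNCCC on the opposite strand) in the RefSeq promoter windows of GRCm38.p6, which span 250 bases before to 50 bases after each listed start. Of the 9 genes, 7 had at least 1 window and 5 of these held a match, namely Rel, Nfkb2, Nfkbia, Nfkbie and Tnfaip3. Rela and Nfkbib had a window with no match, and Relb and Nfkbiz had none listed. A match was held by 8 of the 10 windows of these genes, against 5.56% of all 32851 windows. Counted by gene, 6.86% of all tested genes with a window held a match. The list includes inhibitors chosen because NF-kB induces them, and windows of Nfkb2 overlap. The 10 windows are therefore not independent of the motif or of one another. A match is a run of letters and not a measured binding site. The 250 bases before the start of Nfkbia, at chr12:55492648-55492897 on the minus strand, are shown with the match in capitals because this is the textbook feedback gene of the pathway:
Nfkbia: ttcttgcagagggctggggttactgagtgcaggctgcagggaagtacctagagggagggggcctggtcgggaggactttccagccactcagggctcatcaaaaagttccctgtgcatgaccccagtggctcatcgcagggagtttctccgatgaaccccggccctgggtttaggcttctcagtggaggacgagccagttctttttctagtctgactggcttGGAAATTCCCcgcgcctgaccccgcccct

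Matches in the other genes are shown with 10 bases on each side, so that the cores can be compared with the one of Nfkbia. The Nfkbie window lies at chr17:45555584-45555613 on the plus strand. The Tnfaip3 window, before the more upstream of its 2 starts, lies at chr10:19015403-19015432 on the minus strand. For Nfkb2, with 3 listed starts, the windows at chr19:46304689-46304718 and chr19:46305695-46305724 on the plus strand are given, and for Rel the one at chr11:23771041-23771070 on the minus strand. Capitals mark the match:
Nfkbie: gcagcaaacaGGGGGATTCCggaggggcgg
Tnfaip3: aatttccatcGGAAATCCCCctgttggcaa
Nfkb2, first start: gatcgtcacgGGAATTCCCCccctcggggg
Nfkb2, last start: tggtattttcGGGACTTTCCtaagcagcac
Rel: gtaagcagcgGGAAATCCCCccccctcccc

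The Rel and Tnfaip3 matches were the same 10 letters. The windows of the first and second starts of Nfkb2 each held 2 matches, as did that of the more upstream start of Tnfaip3. Of all windows, 0.201% held 2 or more. The windows of the second and last starts of Nfkb2 overlap. The match shown for the last start lies in both, just after the second start.

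The arrays themselves differed in how far they stood from one another. Over all genes the SD of the log2 difference was 0.104 between the controls, 0.204 between either control and knockdown 1, and 0.134 between either control and knockdown 2. Chadl, the targeted gene, read 4.91 and 4.84 in control cells, 4.29 in knockdown 1 and 4.64 in knockdown 2, and did not pass the test (adjusted p = 0.728, limma). Of the chondrocyte markers, Sox9 read 7.47 to 7.52 over all 4 arrays and Col2a1 read 9.01 and 9.08 in control cells and 8.23 and 9.17 after knockdown, while Acan read only 5.08 to 5.12. Over the 15 chondrocyte markers measured the mean log2 signal was 5.44 in both controls, 5.18 in knockdown 1 and 5.43 in knockdown 2. Of the 15, 3 lay above the control mean in knockdown 1 and 6 in knockdown 2, against 49.0% and 55.4% of all genes. Col2a1 lay farthest below the control mean in knockdown 1 (-0.82), followed by Matn1 (-0.77), Col9a1 (-0.68) and Hapln1 (-0.62). The last 3 were named after their values were seen. The 3 markers above it in knockdown 1 were Sox6 (0.10), Col11a1 (0.10) and Sox9 (0.0056). In knockdown 2 Col2a1, Matn1 and Col9a1 lay above the control mean (0.12, 0.05 and 0.17) and Hapln1 below it (-0.20). The part of the lower marker mean of knockdown 1 in the NF-kB values of that array was not tested.

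Relb, Nfkbia, Nfkbie and Tnfaip3 read higher in knockdown 1 and near control in knockdown 2. By its brightest probe set, Nfkbiz alone among the 9 genes read more than 1.2-fold higher in both, while its dimmer probe sets overlapped between the groups. None passed the test over all genes: with limma 0 of 9 had an adjusted p under 0.05, as did 0 (0%) of all 17097 genes in either direction. At an unadjusted p under 0.05, 2 of the 9 were higher and 0 lower, Nfkb2 and Nfkbiz, where 4.15% of all genes were higher and 2.52% lower. The median log2 difference of the 9 genes was 0.24, against 0.0067 over all genes. In knockdown 1 it was 0.34 and in knockdown 2 it was 0.057, against -0.0031 and 0.014 over all genes. The knockdown arrays both exceeded the controls for 6 of the 9 genes and both lay below them for 0, where 21.2% and 17.1% of all genes did so. The 6 were Rela, Relb, Nfkb2, Nfkbib, Nfkbie and Nfkbiz. For Relb and Rela knockdown 2 did so narrowly, at 4.853 against 4.852 in control 1 and 8.60 against 8.58 in control 2. Over the 14 probe sets, 7 lay above the controls on both knockdown arrays and 0 below, against 18.6% and 19.9% of all probe sets. At an unadjusted p under 0.05 in limma 3 of the 14 were higher, against 3.42%, and 0 passed after adjustment, where 0.00222% of all probe sets passed as lower.

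**Figure D1:**
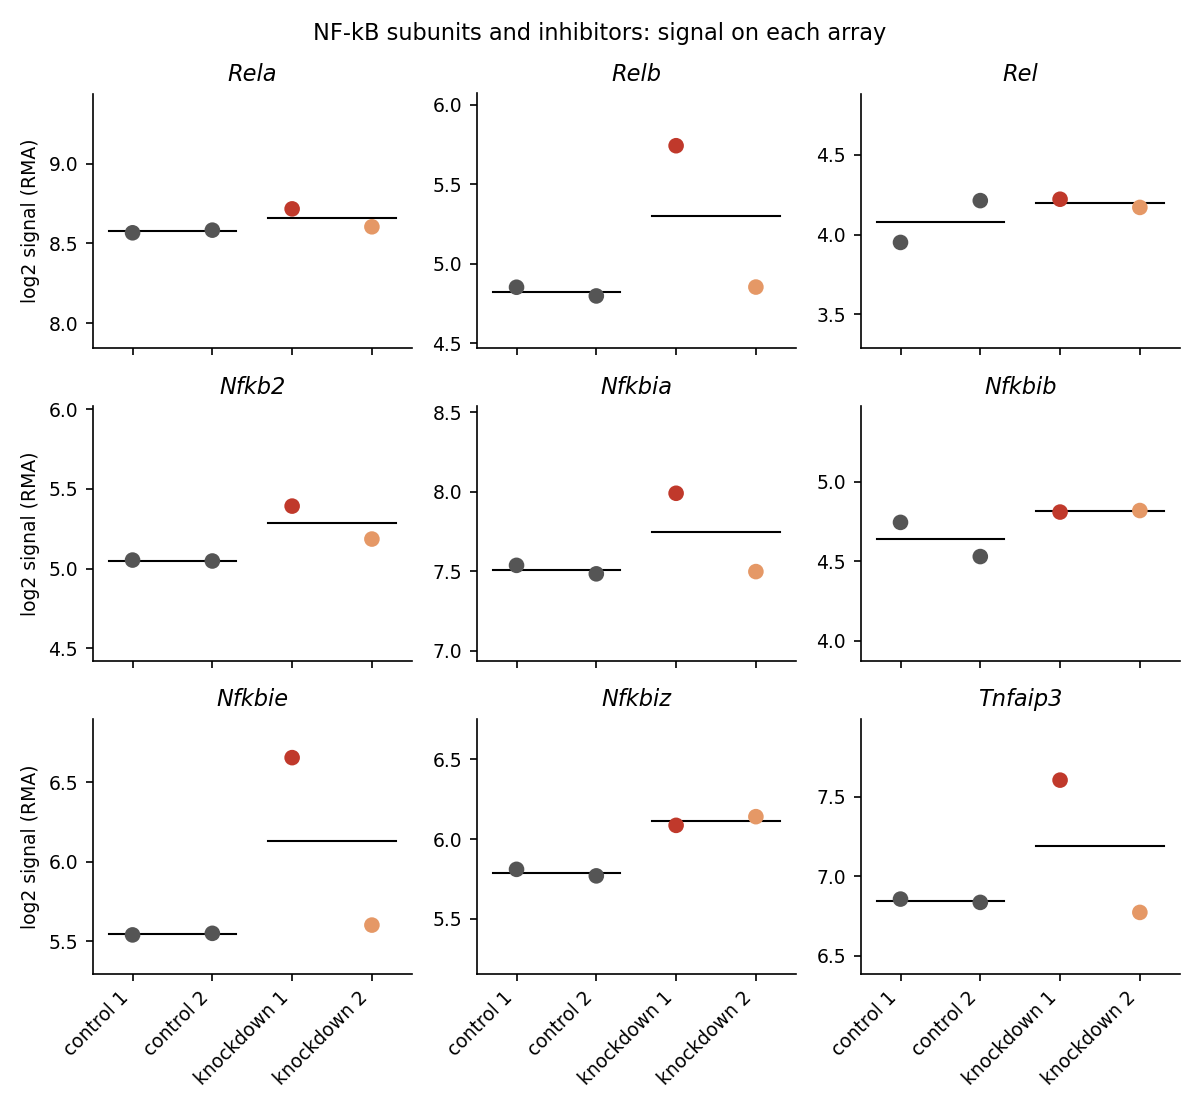
Log2 signal (RMA) of the 9 genes on each array, with controls in grey, knockdown 1 in red, knockdown 2 in orange and bars at the group means of 2 arrays. Each panel spans the same number of log2 units but not the same levels. Relb, Nfkbia, Nfkbie and Tnfaip3 stand high in knockdown 1 only, and Nfkbiz in both knockdown arrays.

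Among the subunits, Relb showed the largest difference. Relb, the partner of the noncanonical branch, read 4.85 and 4.80 in control cells and 5.74 and 4.85 after knockdown. Knockdown 1 was thus 1.89-fold above the control mean, and knockdown 2 lay above control 1 by less than the 2 controls differed. The mean log2 difference was 0.47 (SE 0.26, 95% confidence interval -0.15 to 1.10, n = 2 per group, limma adjusted p = 0.760). In knockdown 1 Relb had the 47th highest difference of all 17097 genes, and in knockdown 2 the 7544th.

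Nfkb2 encodes the precursor that pairs with the Relb product and is itself a known NF-kB target. It read 5.05 and 5.05 in control cells and 5.39 and 5.19 after knockdown. Both knockdown arrays were higher, by 1.27-fold and 1.10-fold. This gave a mean difference of 0.24 (SE 0.10, 95% confidence interval 0.0023 to 0.47), with an unadjusted p of 0.0483 and an adjusted p of 0.744 in limma.

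Rela, the main activating subunit of the classical pathway, read 8.57 and 8.58 in control cells and 8.72 and 8.60 after knockdown, a mean difference of 0.09 (SE 0.06, 95% confidence interval -0.06 to 0.23). The largest departure was that of knockdown 1, at 1.10-fold. Rel, the subunit best known from lymphocytes, was dim (signal percentile 35.5 among all genes) and read 3.95 and 4.21 against 4.22 and 4.17. Its groups overlapped, and the controls differed from each other by more than the group means did. Its difference of 0.11 (SE 0.11, 95% confidence interval -0.14 to 0.37) turned to -0.02 without control 1.

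The 3 classical IkB genes gave unlike values across the arrays. Nfkbie, which encodes IkB-epsilon, read 5.54 and 5.55 in control cells and 6.65 and 5.60 after knockdown. Knockdown 1 was 2.16-fold above the control mean, the 28th highest difference of all genes on that array, while knockdown 2 was 1.04-fold above it. The mean difference of 0.58 (SE 0.30, 95% confidence interval -0.15 to 1.31) did not pass (adjusted p = 0.760, limma). Its second, dimmer probe set gave the same picture, with 4.28 and 4.18 in control cells and 5.17 and 4.37 after knockdown.

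Nfkbia, which encodes IkB-alpha, the inhibitor that is degraded and resynthesised in each round of activation, read 7.54 and 7.48 in control cells and 7.99 and 7.50 after knockdown. Knockdown 1 was 1.39-fold above the control mean and knockdown 2 lay between the controls. On average they differed by 0.23 (SE 0.15, 95% confidence interval -0.13 to 0.60, adjusted p = 0.787, limma).

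Nfkbib encodes IkB-beta, which is less dependent on NF-kB for its expression. It read 4.74 and 4.53 in control cells and 4.81 and 4.82 after knockdown. The spread between the controls, 0.21, was larger than the mean difference of 0.18 (SE 0.10, 95% confidence interval -0.06 to 0.41). The second probe set of Nfkbib was dim and read 3.88 and 3.79 against 4.18 and 3.78, with knockdown 2 below both controls.

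Tnfaip3 encodes the ubiquitin-editing enzyme that shuts off signalling above the IkB kinases. It read 6.86 and 6.84 in control cells and 7.60 and 6.77 after knockdown. The 2 knockdown arrays lay on opposite sides of the controls, 1.69-fold above the control mean in knockdown 1 and 0.07 below it on the log2 scale in knockdown 2. The mean difference of 0.34 (SE 0.24, 95% confidence interval -0.24 to 0.92) did not pass (adjusted p = 0.805, limma). A second probe set read 3.68 and 3.74 against 3.75 and 3.70, at the 30.3th percentile of all probe sets, with no separation of the groups.

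Nfkbiz showed another pattern. It encodes a nuclear IkB protein that binds DNA-bound NF-kB dimers and is needed for the induction of a subset of secondary response genes, Il6 among them. Its brightest probe set read 5.81 and 5.77 in control cells and 6.09 and 6.14 after knockdown. Both knockdown arrays were higher, by 1.23-fold and 1.28-fold, and they differed from each other by 0.05, about as much as the controls did (0.04). The mean log2 difference of 0.32 (SE 0.08, 95% confidence interval 0.13 to 0.52) had an unadjusted p of 0.00573 and an adjusted p of 0.663 in limma. It was the 138th highest difference of all genes in knockdown 2 and the 975th in knockdown 1. The other 2 probe sets of Nfkbiz were dimmer and overlapped between groups. They read 4.32 and 4.36 against 4.49 and 4.28, and 4.27 and 4.32 against 4.39 and 4.30, and with all probe sets averaged the difference of the gene was 0.14.

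**Figure D2:**
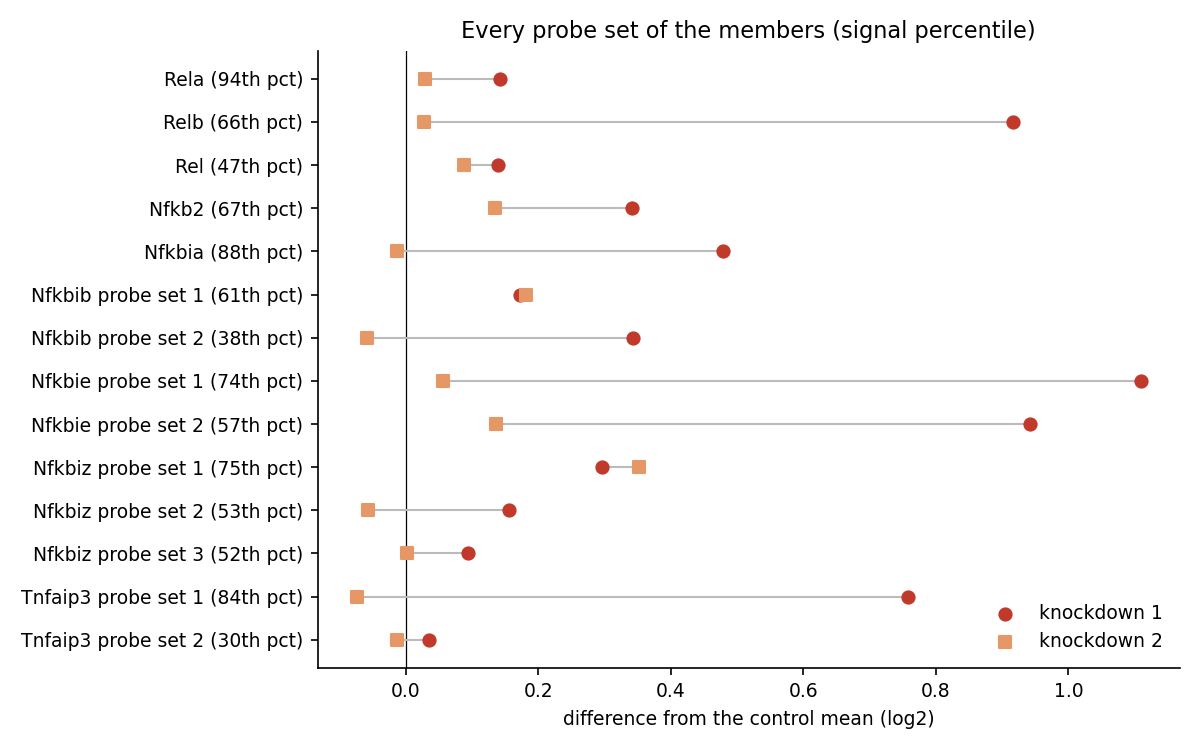
Difference from the control mean (log2) of all 14 probe sets in knockdown 1 (red circles) and knockdown 2 (orange squares), with the percentile of each probe set's mean signal among all probe sets in the row label. Both Nfkbie probe sets lie far to the right in knockdown 1, and only the brightest Nfkbiz probe set lies above 0.25 in knockdown 2.

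Taking each knockdown array alone against the control mean, 6 of the 9 genes lay more than 1.2-fold above it in knockdown 1, where 7.25% of all genes did. These were Relb, Nfkb2, Nfkbia, Nfkbie, Nfkbiz and Tnfaip3. In knockdown 2 it was 1 of 9, Nfkbiz, where 2.49% of all genes did. At 1.5-fold the counts were 3 of 9 in knockdown 1, with 1.06% of all genes, and 0 of 9 in knockdown 2, with 0.146%. All 9 genes lay above the control mean in knockdown 1, where 49.0% of all genes did, and 7 of 9 in knockdown 2, where 55.4% did, the exceptions being Nfkbia and Tnfaip3. Both arrays are compared with the same controls, so the 2 sets of differences are not independent. The 9 genes were also chosen with earlier results of these data known. RNA came from whole cultures, and a response in more cells cannot be told apart from more RNA per responding cell.

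**Figure D3:**
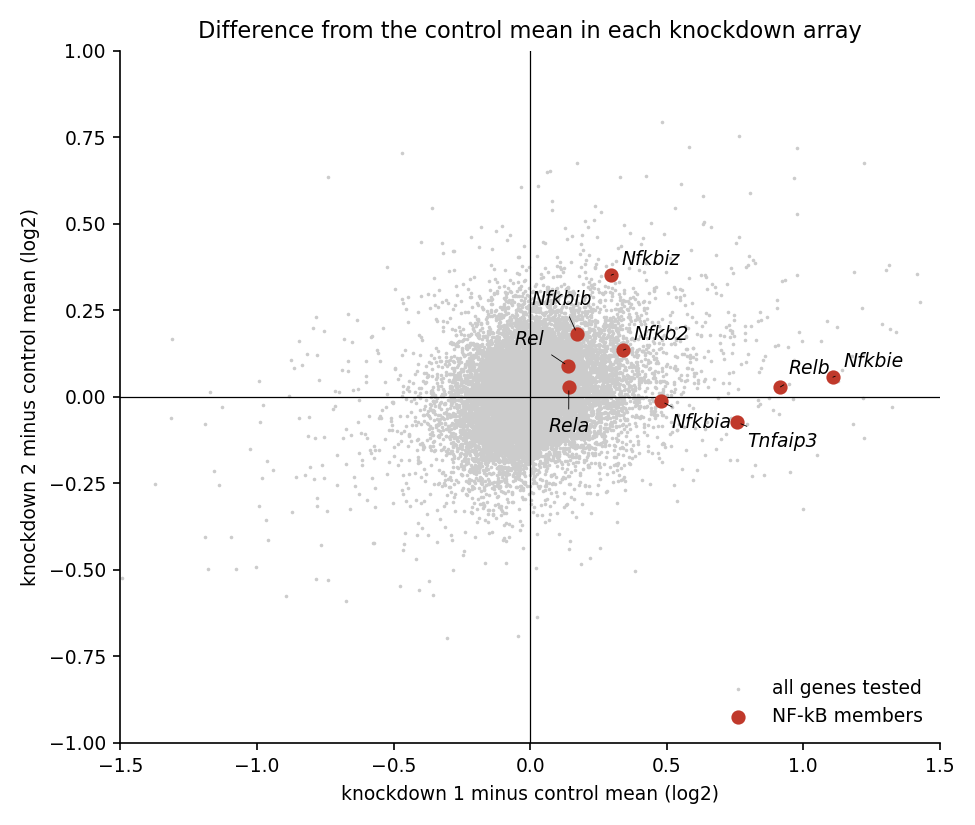
Difference from the control mean (log2) in knockdown 1 (horizontal) and knockdown 2 (vertical), with all genes in grey and the 9 NF-kB genes in red. Some 26 genes lie outside the plotted range; Relb, Nfkbie and Tnfaip3 lie far right near the horizontal line, and Nfkbiz lies at similar height on both axes.

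The test was sensitive to the knockdown array used. With knockdown 2 left out, limma passed 7 of the 9 genes as higher in knockdown 1, where 8.94% of all genes passed as higher and 6.18% as lower, with the lone array taken to vary like the controls. Nfkbie had an adjusted p of 1e-07 in that limma fit, Tnfaip3 of 3.46e-07, Relb of 4.46e-06, Nfkbia of 1.25e-05, Nfkb2 of 0.0208, Nfkbiz of 0.0233 and Rela of 0.0297. Nfkbib (adjusted p = 0.362, limma) and Rel (adjusted p = 0.506, limma) did not pass. With knockdown 1 left out, 1 of 9 passed, Nfkbiz, with a log2 difference of 0.35 and an adjusted p of 0.0272 in limma, where 1.91% of all genes passed as higher and 1.37% as lower. Nfkbia and Tnfaip3 then differed by -0.01 and -0.07. Leaving out either control gave an adjusted p of 1.0 for all 9 genes, and in the alternatives that kept all arrays the adjusted p of the 9 genes lay between 0.535 and 0.902.

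The rest of the pathway was described through lists of genes by role. Among the receptors that feed into NF-kB, 0 of 15 measured passed over all genes and 0 had an unadjusted p under 0.05 in limma (4.15% of all genes were higher and 2.52% lower), with a median difference of 0.05. Tlr3, the endosomal receptor for double-stranded RNA, read 8.47 and 8.46 in control cells and 8.60 and 8.57 after knockdown. The interleukin-1 receptor gene Il1r1 read 5.31 and 5.36 against 5.64 and 5.40, and Tlr2, a receptor for bacterial lipopeptides, 6.22 and 6.38 against 6.72 and 6.35. Knockdown values exceeded all control values for Tlr3 and Il1r1, and the groups overlapped for Tlr2.

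Among the ligands, 0 of 11 passed and 1 was higher at an unadjusted p under 0.05 in limma, against 4.15% of all genes. It was Il33, a cytokine of the interleukin-1 family, which read 4.93 and 4.94 in control cells and 5.49 and 5.55 after knockdown (log2 difference 0.58, SE 0.08, adjusted p = 0.451, limma). Il18 of the same family read 7.56 and 7.43 against 7.79 and 7.52. Tnf and Il1b, named for their role and outside the rule, had signal percentiles of 33.4 and 39.2 and differed by 0.10 and -0.08.

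The kinases and adaptors as a list lay near all genes, with a median difference of 0.02 over 26 measured genes. None passed, and an unadjusted p under 0.05 in limma was reached by 3 of 26 as higher and 0 as lower, against 4.15% and 2.52% of all genes. Irak2, a kinase of the interleukin-1 and Toll-like receptor pathway, read 6.17 and 6.19 in control cells and 6.49 and 6.44 after knockdown, high on both knockdown arrays (log2 difference 0.28, SE 0.08, adjusted p = 0.694, limma). Tab3, an adaptor of the kinase that activates the IkB kinases, read 5.84 and 5.88 against 6.44 and 6.04. Rnf31, the catalytic subunit of the linear ubiquitin ligase, read 4.98 and 4.83 against 5.23 and 5.10. Of the IkB kinase complex itself, also outside the rule, Ikbkb differed by 0.02 and Ikbkg by -0.05.

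Of 14 other inhibitors of the pathway measured, 0 passed, 1 was higher and 0 lower at an unadjusted p under 0.05 in limma (4.15% and 2.52% of all genes), and the median difference was 0.08. For 6 of the 14 the knockdown arrays both exceeded the controls, and for 0 both lay below, against 21.2% and 17.1% of all genes. Nlrc5, an interferon-inducible regulator of MHC class I genes reported to restrain NF-kB signalling, read 5.00 and 5.15 in control cells and 5.53 and 5.24 after knockdown. Tnip1, which binds the Tnfaip3 product, read 6.24 and 6.23 against 6.58 and 6.31. Trafd1, a negative regulator of Toll-like receptor signalling, read 7.08 and 7.07 against 7.42 and 7.13. All 3 were highest in knockdown 1.

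NF-kB target genes outside the 9 had the highest median of the 5 other lists in knockdown 1. Of 35 measured, 16 lay more than 1.2-fold above the control mean in knockdown 1 and 3 in knockdown 2, against 7.25% and 2.49% of all genes. The median difference was 0.18 in knockdown 1 and 0.04 in knockdown 2. The list of targets was chosen with earlier results of these data known, so these counts are not independent of the arrays. At an unadjusted p under 0.05 in limma, 6 of 35 were higher and 0 lower, against 4.15% and 2.52% of all genes, and 0 passed. Ptgs2, the inducible cyclooxygenase gene, read 7.00 and 6.99 in control cells and 7.23 and 7.50 after knockdown, higher in knockdown 2 than in knockdown 1. Cxcl1, a neutrophil chemokine gene, read 6.89 and 6.84 against 7.46 and 7.09, and Tapbp, a chaperone of MHC class I loading, 10.56 and 10.53 against 10.85 and 10.68. All 3 were above the controls on both knockdown arrays, as genes picked for a small p tend to be. Over the 35 targets the knockdown arrays both exceeded the controls for 12 and both lay below them for 1, against 21.2% and 17.1% of all genes. That 1 was Sod2, named after its values were seen, which read 8.88 and 8.91 in control cells and 8.80 and 8.84 after knockdown. The groups overlapped for 22 of the 35, and for 10552 of all 17097 genes. The 3 targets farthest above the control mean in knockdown 1, named after their values were seen, lay below it in knockdown 2. The cytokine gene Il6 differed by 1.67 in knockdown 1 and by -0.01 in knockdown 2, and the chemokine genes Ccl7 by 1.22 and -0.12 and Ccl2 by 1.00 and -0.32. The 3 targets over 1.2-fold in knockdown 2 were Ptgs2, Cxcl5 and Csf3, the last 2 named after their values were seen. Cxcl5 and Csf3 were dim (signal percentiles 36.0 and 33.1). Csf3 read 3.87 and 4.11 in control cells and 4.02 and 4.26 after knockdown, with overlapping groups.

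**Figure D4:**
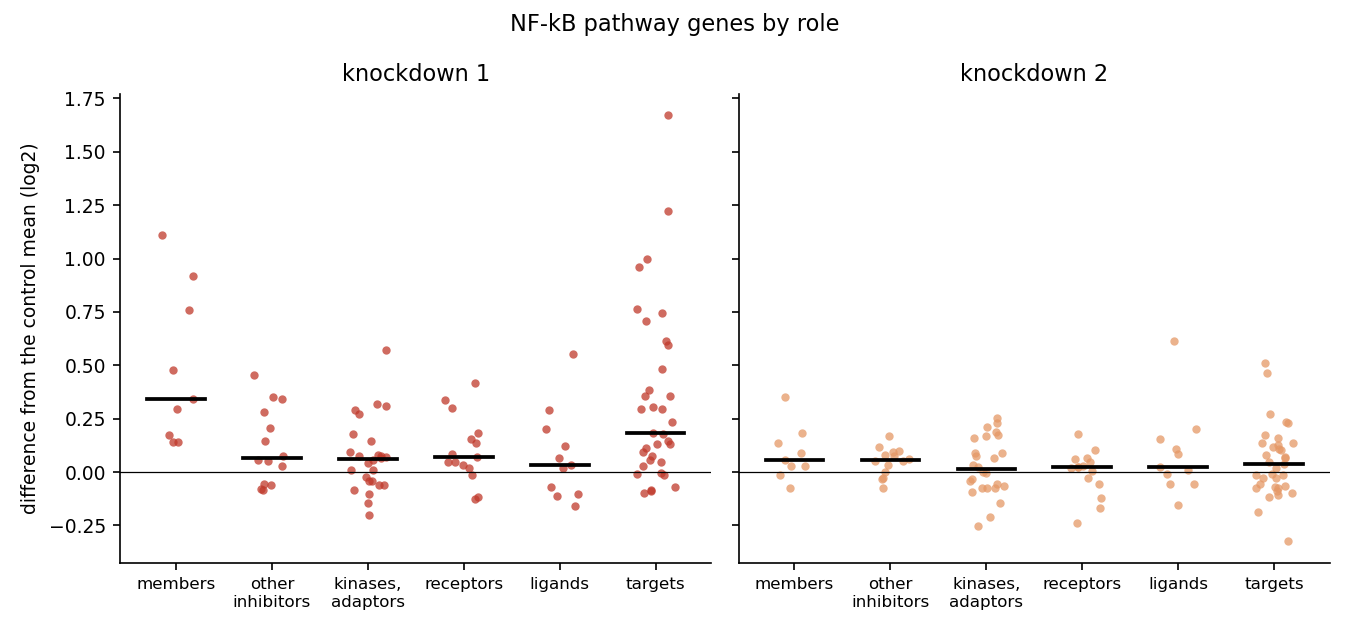
Difference from the control mean (log2) of each measured gene, by role in the NF-kB pathway, in knockdown 1 (left) and knockdown 2 (right), with black bars at the list medians. The 9 members and the targets reach highest in knockdown 1, with medians of 0.34 and 0.18, and both medians lie under 0.1 in knockdown 2.

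The values of all genes that hold the promoter motif were examined in the same way. Of 13605 tested genes with a promoter window, 933 held a match. Their median difference was -0.0036 in knockdown 1, against -0.0022 for all genes with a window, and 7.93% lay more than 1.2-fold above control, against 7.07%. With the 5 members left out the share was 7.54%. In knockdown 2 the share was 2.14%, against 2.42%. Of the 39 tested genes with 2 or more matches in a window, 15.4% lay more than 1.2-fold above control in knockdown 1 and 0% in knockdown 2. With the members left out it was 4 of 37 genes, or 10.8%, in knockdown 1. Of the 5 members with a match, the knockdown arrays both exceeded the controls for Nfkb2 and Nfkbie, and the groups overlapped for Rel, Nfkbia and Tnfaip3. Both exceeded the controls for Rela and Nfkbib, whose windows held no match, and for 21.2% of all genes. Rela did so narrowly, with 8.60 in knockdown 2 against 8.58 in control 2. These counts are too small to compare members with and without a match.

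The genes whose signal over the 4 arrays was most like that of Nfkbia were sought among the 8548 other genes at or above the median signal, by the root mean square difference of profiles centred on their own control mean. The closest were Smim3 (0.0074), 2610002M06Rik (0.011), Sox4 (0.021), Retreg1 (0.022) and Adgrl4 (0.022). Smim3 read 6.42 and 6.35 in control cells and 6.87 and 6.38 after knockdown. With 4 arrays, a profile that is high in knockdown 1 only is shared by many genes. Of the members, Nfkb2 (0.10) and Tnfaip3 (0.14) were closest to Nfkbia, ranking 517th and 1261st among all genes, and Nfkbie was farthest (0.32) because its difference in knockdown 1 was larger.

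Most markers of macrophages, a cell type rich in NF-kB activity, were low. Of 13 markers measured, 12 lay below the median signal of all genes, Ptprc at the 8.48th percentile and Csf1r, nearer the median, at the 46.7th. The exception was Cd14, at the 51.0th percentile. Over the 13 markers the mean log2 signal was 3.81 and 3.74 in control cells and 3.71 and 3.83 after knockdown. Knockdown 1 lay below control 2 by less than the controls differed from each other. Lyz2 and Cd68, named after their values were seen, read 0.54 and 0.28 above the control mean in knockdown 2 and differed by 0.08 and -0.0019 in knockdown 1.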

How the data were processed

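The authors deposited a log2 signal for each probe set after RMA, as the submitters' processing notes name it. The RMA software is not given in the sources used here, and the log base was read from the values. RMA removes differences in total RNA between arrays and compresses the change of dim genes, and the number of arrays limits the precision. Array controls (104 probe sets) were left out. Each gene was represented by its brightest probe set with 1 symbol in the platform annotation. The groups were compared by limma 3.58.1 in R 4.3.3 (eBayes with a trend, 2 residual degrees of freedom, two-sided, Benjamini-Hochberg over all 17097 genes, threshold 0.05), checked on simulated data, and over all 45037 probe sets. Single arrays were described with no test. An exact permutation test of 2 against 2 arrays cannot go below p = 0.333 and was not used.

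The members and lists were chosen with earlier results of these data known. The rule for named genes took the members, Chadl, from each pathway list the passing genes or else the 3 of smallest unadjusted p at or above the median signal (4.86), 5 genes most like Nfkbia, and Sox9, Col2a1, Acan, Ptprc and Csf1r. Promoter sequences are RefSeq's.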

Additional observations from a re-analysis of the deposited data

How the results depend on the processing

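Alternatives were quantile normalization, median centring, a filter at the 40th signal percentile (which removed Rel), the mean of probe sets, no trend in eBayes, its robust form, a block for the replicate number, all probe sets, an adjusted p of 0.1 and leaving out each array. In those that kept all arrays, 0 of the 9 genes passed and each kept its direction, and the median difference lay between 0.18 and 0.28. Over all probe sets 1 probe set passed, none of a member's. Leaving out 1 array gave 0 to 2584 genes passed, 0 to 7 members passed and a median of 0.057 to 0.34. The direction turned without 1 array for 3 genes, whose log2 differences ranged from -0.017 (without control 1) to 0.25 for Rel, from -0.0126 (without knockdown 1) to 0.48 for Nfkbia and from -0.0733 (without knockdown 1) to 0.76 for Tnfaip3. Same-numbered arrays did not deviate together (correlation over genes -0.0041), and with the replicate block 0 genes and 0 members passed and the median difference was 0.24. The number of arrays, 2 per group, limits the precision of every difference.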
